A study of Caenorhabditis elegans with 2 samples.

Results

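SNPC-4 peaks at the promoters of autosomal protein-coding genes that have no small RNA gene nearby numbered 706, out of 4675 reproducible SNPC-4 peaks in whole Caenorhabditis elegans. They were taken from the list of peaks past the authors' irreproducible discovery rate (IDR) threshold in the ce11 genome build, called IDR peaks here. A peak was included if it lay on an autosome and its summit was within 300 bp of the annotated 5' end of a protein-coding gene. No annotated 5' end of a non-coding RNA gene could lie within 500 bp, genes named rpl-, rps-, rla- or his- did not count as coding, and chromosome IV from 4.5 to 7.0 Mb and from 13.5 to 17.2 Mb, where piRNA genes are clustered, was left out. A promoter is called divergent where coding genes on both strands start within 300 bp of the summit and run away from each other, and single otherwise: 126 peaks were at divergent promoters (17.8%, exact 95% binomial interval 15.1 to 20.9) and 580 at single promoters. The same positional rule fitted 3390 candidate regions before the IDR threshold, and the 706 peaks were 20.8% of them. They lay within 300 bp of the 5' ends of 833 of the 15557 coding genes that could hold one, which is 5.35%.

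The worms were of strain YL487, which stably expresses a transgenic SNPC-4 carrying GFP and FLAG at its C-terminus, and were hermaphrodite young adults grown for 60 h after starved first-stage larvae were released. Chromatin immunoprecipitation was made with an anti-GFP antibody according to the sample description, although the antibody entry reads snpc-4. Both samples are biological replicates of 1 group, without a second genotype, tissue or condition, so the comparisons here are between genomic regions and carry no test between conditions. Whole animals were used, and the cells in which a promoter was bound cannot be told apart.

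SNPC-4 is the worm counterpart of the largest DNA-binding subunit of SNAPc, a complex that sits at the proximal sequence element upstream of small nuclear RNA genes and recruits RNA polymerase II or III to them. In worms it is also known at spliced leader RNA genes and at piRNA genes in the germline. Promoters of protein-coding genes are not its textbook targets. Worm genes are densely packed, many lie head to head or in operons, and many mRNAs are trans-spliced, so an annotated 5' end can lie downstream of the place where transcription begins.

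Sequences at the summits are shown for the strongest peaks on chromosomes II to V with and without TGTCGG, a 6-base core that an earlier look at these data had found upstream of spliced leader, small nuclear and small nucleolar RNA genes. Each is the window from 100 bp before to 100 bp after a summit in the RefSeq sequence of WBcel235, the assembly of ce11, cut where it would run into an annotated transcript, and is read 5' to 3' on the strand of the nearest coding gene. Some stronger peaks on the remaining autosome, among them syp-3, Y71G12B.23 and Y39G10AR.32 with TGTCGG and spd-2 and nlp-4 without it, are not shown. The first group has TGTCGG, written in capitals, as CCGACA where it is on the other strand. Its divergent promoters are rib-2 with tbb-1 (chrIII:10742570-10742770, plus strand, signal 395), fib-1 with mut-15 (chrV:15002224-15002420, minus strand, signal 388) and T23F6.3 with rbd-1 (chrIV:12724761-12724920, minus strand, signal 296). Its single promoters are tmem-258 (chrV:7062867-7063067, plus strand, signal 1422), cox-5A (chrIII:12905100-12905300, plus strand, signal 792) and fbxa-99 (chrV:15982862-15983062, minus strand, signal 727).
rib-2: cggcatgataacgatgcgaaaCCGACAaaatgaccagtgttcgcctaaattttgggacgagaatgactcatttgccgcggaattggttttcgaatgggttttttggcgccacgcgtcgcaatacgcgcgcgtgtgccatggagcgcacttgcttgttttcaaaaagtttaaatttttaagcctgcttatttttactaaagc
fib-1: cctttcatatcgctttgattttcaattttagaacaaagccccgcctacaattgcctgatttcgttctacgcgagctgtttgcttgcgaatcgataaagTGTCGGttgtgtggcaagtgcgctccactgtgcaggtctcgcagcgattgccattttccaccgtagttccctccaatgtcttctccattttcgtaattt
T23F6.3: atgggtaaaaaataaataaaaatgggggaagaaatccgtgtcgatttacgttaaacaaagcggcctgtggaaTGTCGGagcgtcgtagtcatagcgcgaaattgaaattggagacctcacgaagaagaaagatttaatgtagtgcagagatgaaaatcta
tmem-258: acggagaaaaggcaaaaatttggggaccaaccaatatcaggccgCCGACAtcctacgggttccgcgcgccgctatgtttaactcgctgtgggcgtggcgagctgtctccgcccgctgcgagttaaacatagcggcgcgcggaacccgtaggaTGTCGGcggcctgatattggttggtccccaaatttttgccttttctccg
cox-5A: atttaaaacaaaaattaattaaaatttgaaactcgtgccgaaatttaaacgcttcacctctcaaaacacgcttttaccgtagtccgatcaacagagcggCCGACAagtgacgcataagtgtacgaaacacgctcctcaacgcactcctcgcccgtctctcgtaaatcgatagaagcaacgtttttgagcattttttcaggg
fbxa-99: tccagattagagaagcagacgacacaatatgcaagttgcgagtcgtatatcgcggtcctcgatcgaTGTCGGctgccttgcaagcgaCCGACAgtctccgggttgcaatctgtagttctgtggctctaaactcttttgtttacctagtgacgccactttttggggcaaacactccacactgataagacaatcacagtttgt
In the fbxa-99 window TGTCGG occurs on both strands. The tmem-258 window reads as an inverted repeat with exact arms of 85 bp, each arm holding the sequence.

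The strongest peaks on chromosomes II to V without TGTCGG make up the second group. There the capitals mark ACGCGC as well as GAGCGC and CTGCGTC on either strand. These were more frequent at the peaks than at weaker candidates under the same positional rule, as described further on. Its divergent promoters are T26A8.4 with pdtf-1 (chrIV:8432894-8433037, minus strand, signal 993), drr-2 with set-16 (chrIII:13643632-13643832, minus strand, signal 592) and haf-3 with F57A10.2 (chrV:15766277-15766477, plus strand, signal 526). Its single promoters are eelo-2 (chrIV:17249807-17250007, plus strand, signal 2673), efl-1 (chrV:16965759-16965959, minus strand, signal 1175) and tasp-1 (chrIII:10759150-10759306, plus strand, signal 1078).
T26A8.4: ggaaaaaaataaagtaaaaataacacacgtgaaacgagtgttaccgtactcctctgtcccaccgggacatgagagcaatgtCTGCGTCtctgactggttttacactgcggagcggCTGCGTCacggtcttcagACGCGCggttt
drr-2: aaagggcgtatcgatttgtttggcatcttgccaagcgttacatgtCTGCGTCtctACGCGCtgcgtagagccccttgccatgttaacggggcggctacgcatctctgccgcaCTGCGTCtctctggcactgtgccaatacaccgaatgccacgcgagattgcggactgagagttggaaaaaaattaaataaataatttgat
F57A10.2: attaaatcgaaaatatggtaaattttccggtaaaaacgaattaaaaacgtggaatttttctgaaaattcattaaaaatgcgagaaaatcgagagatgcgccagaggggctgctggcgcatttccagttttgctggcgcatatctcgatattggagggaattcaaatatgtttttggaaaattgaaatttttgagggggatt
eelo-2: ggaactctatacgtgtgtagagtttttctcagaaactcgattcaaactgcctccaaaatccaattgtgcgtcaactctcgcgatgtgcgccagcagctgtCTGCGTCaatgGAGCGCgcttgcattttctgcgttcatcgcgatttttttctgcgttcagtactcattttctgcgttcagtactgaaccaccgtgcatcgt
efl-1: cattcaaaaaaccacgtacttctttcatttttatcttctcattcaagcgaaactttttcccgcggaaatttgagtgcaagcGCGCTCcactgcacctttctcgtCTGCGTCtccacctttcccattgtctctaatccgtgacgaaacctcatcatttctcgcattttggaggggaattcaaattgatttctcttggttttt
tasp-1: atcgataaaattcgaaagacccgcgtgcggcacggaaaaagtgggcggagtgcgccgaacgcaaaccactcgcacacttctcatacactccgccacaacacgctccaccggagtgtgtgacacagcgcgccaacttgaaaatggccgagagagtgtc
The windows at F57A10.2 and tasp-1 hold none of the marked sequences. In the first group these sequences are present but not marked: the rib-2 window holds ACGCGC and GAGCGC, and the fib-1 window holds GAGCGC as GCGCTC.

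The signal given for each peak is the authors' own measure of its strength, on a scale that the sources used here do not give, and the IDR list held exactly the 4675 strongest of 30000 pooled candidate regions. Of all candidates 15.6% were therefore IDR peaks, and of the 18873 autosomal candidates outside the left-out regions of chromosome IV 13.8% were (2601 peaks). The 2684 candidates that fitted the positional rule but were no IDR peaks are called sub-threshold candidates. Read depth is unknown from the lists, and all binomial intervals cover counting error only.

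Signals at the 706 peaks ran from 87.3 to 4214 with a median of 157 and quartiles of 116 and 228. Peaks at non-coding RNA genes on the same parts of the genome reached 34251 and had a median of 234 (593 peaks), while 1012 peaks with no annotated 5' end nearby had a median of 156. Among the 4675 ranks of the list their median rank was 2472 and their best 78. Their limit is set by the list: the weakest was at K05C4.7 (signal 87.3, rank 4675), and the strongest candidate just below was at pfd-5 (signal 87.1, rank 4682). On the distance limit, the summit at ndua-5 lay 300 bp upstream (signal 220) and was included, and the summit at inx-13 lay 302 bp downstream (signal 234) and was not. Overlapping entries were kept apart, and the 706 peaks merged into 688 regions. Of them, 44 (6.23%) had a non-coding 5' end between 500 bp and 1 kb away, and 2 lay within 1 kb of a stronger peak at a non-coding gene.

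Summits were mostly upstream of the coding 5' end. At the 706 peaks the median position was -128 bp (negative is upstream) with quartiles of -198 and -36 bp, and 592 of them (83.9%, 80.9 to 86.5) were upstream. The sub-threshold candidates had a median of -28 bp and 55.1% (53.2 to 57.0) upstream. At single promoters the median was -142 bp with 82.6% upstream, and at divergent promoters, measured to the nearer start, -85.5 bp with 89.7% upstream. These medians are bounded by the 300 bp limit that chose the peaks. With a limit of 150 bp, the median at single promoters was -63 bp.

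**Figure D1:**
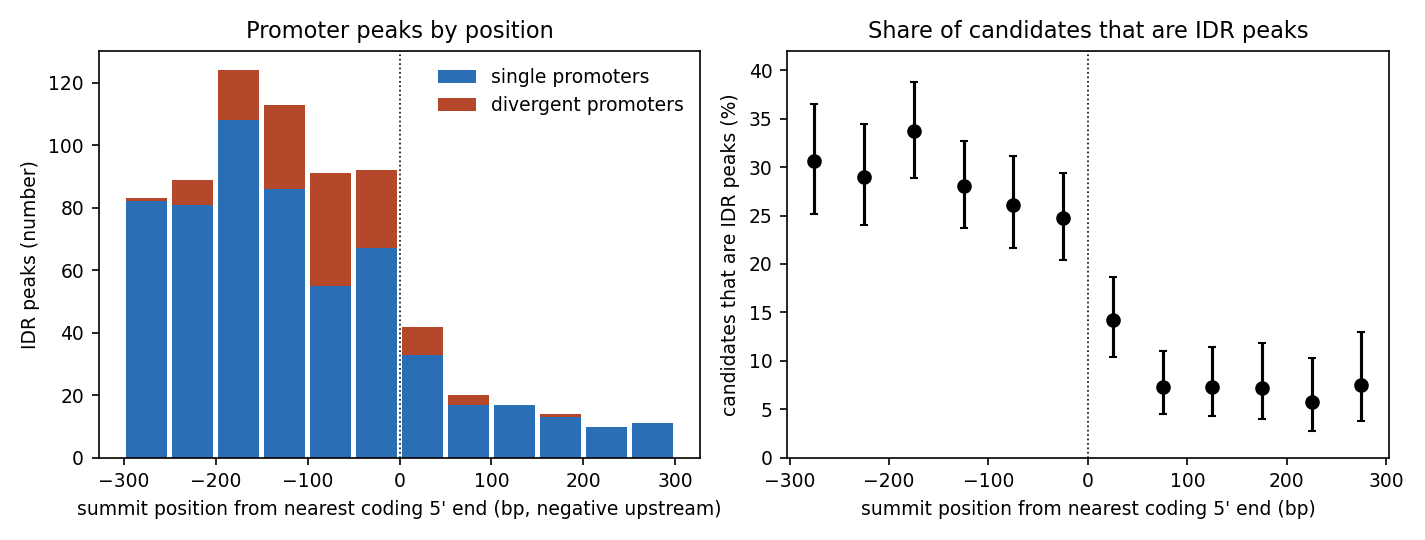
Left, number of promoter peaks by summit position from the nearest coding 5' end (x axis, bp, 50 bp bins, negative is upstream), stacked for single and divergent promoters. Right, the share of candidate regions in each bin that are IDR peaks (y axis, %) with exact 95% binomial intervals: 24.7 to 33.7% in the 6 upstream bins, 14.2% in the first downstream bin and at most 7.48% beyond it.

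The share of candidates that were IDR peaks changed at the start itself. In the 50 bp bins upstream it lay between 24.7% and 33.7%, with the top value from 200 to 150 bp upstream (28.9 to 38.8). It was 14.2% (10.4 to 18.7) in the first 50 bp downstream and between 5.71% and 7.48% in the 5 bins beyond. By annotation, 557 summits (78.9%) were intergenic, 46 were in introns, 46 in 5' UTRs, 40 in coding exons and 16 in 3' UTRs. Among sub-threshold candidates 44.3% were intergenic and 24.1% were in coding exons. The plot of promoter peaks by position shows both the step at the start and its width.

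Among IDR peaks, all above the same signal limit, divergent and single promoters had much the same median signal. Divergent candidates were more often IDR peaks, which is itself a difference in signal, since the list holds the strongest regions. Below the limit the median signal was 38.9 at divergent and 25.3 at single candidates. The median signal was 163 (quartiles 121 and 275) at divergent and 155 (114 and 226) at single promoters, a ratio of 1.05. In replicate 1 the medians were 85.2 and 81.7 (ratio 1.04), and in replicate 2 they were 81.1 and 78.5 (ratio 1.03). The upper quartiles stood further apart, by 1.22 in the pooled list, 1.14 in replicate 1 and 1.23 in replicate 2. The highest signals went the other way, with 1156 at divergent and 4214 at single promoters. A 150 bp limit turned the ratio of medians to 0.858, so no direction is read from it.

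Of 276 candidates at divergent promoters 126 were IDR peaks (45.7%, 39.7 to 51.7), against 580 of 3114 at single promoters (18.6%, 17.3 to 20). The shares were 41.2% and 16.7% in replicate 1, and 40.4% and 17.2% in replicate 2, counting as many of the strongest regions of each replicate as there were IDR peaks. Single promoters with the summit upstream came nearer, at 25.8% of 1853 (23.9 to 27.9), and those with it downstream had 8.01% of 1261 (6.57 to 9.65). Divergent promoters with the summit between both starts had 52.3% of 218 (45.4 to 59.1), and the 58 with the summit outside them had 20.7% (11.2 to 33.4). No test is given, because regions of pooled samples are not replicates.

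Between divergent genes the summits lay towards the centre. The distance between both starts ran from 12 to 533 bp with a median of 288 bp (quartiles 209 and 375). It was shortest at F32D8.14 with F32D8.5 (chromosome V, signal 180) and longest at C34E10.10 with atp-2 (chromosome III, signal 138), the latter a subunit gene of the mitochondrial ATP synthase. In 114 of the 126 (90.5%) the summit was between the starts, and 80 of these 114 (70.2%) were in the middle 50% of that stretch. A summit anywhere in a divergent stretch must lie within 300 bp of both starts to be counted, which favours the centre of long stretches. The median distance to the nearer start was 95.5 bp (53.5 to 144). The minus-strand gene was nearer in 52 peaks and the plus-strand gene in 74.

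Seen from the genes, peaks were most frequent where a coding neighbour started head to head between 200 and 400 bp away. Of the 15557 coding genes that could hold one, 5.35% had a promoter peak within 300 bp. With a head-to-head neighbour at up to 200 bp it was 12.2% of 466 genes (9.40 to 15.6), from there to 400 bp 21.8% of 761 (18.9 to 24.9), further to 600 bp 15.7% of 662 (13.0 to 18.7) and further to 1000 bp 6.77% of 1079 (5.34 to 8.43). Genes behind a same-strand neighbour that ended within 500 bp upstream had 6.09% of 3122 (5.27 to 6.98). The 9467 genes with neither had 2.57% (2.26 to 2.91). One peak between head-to-head starts counts for both genes, so genes of a pair are not independent. Such double counting can itself raise the head-to-head shares, which are therefore not like for like with those of other genes.

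Counting only peaks in the 300 bp upstream of each gene gave the same order. The shares were 9.87%, 20.8%, 15.6% and 6.21% over the 4 head-to-head distances, 4.68% behind a same-strand neighbour and 2.19% with neither, against 4.67% over all 15557 genes. Genes followed by a same-strand gene that starts within 500 bp of their end, an arrangement also found in operons, had 8.71% (267 of 3065, 7.74 to 9.77) against 4.53% of the others (4.17 to 4.91). Among genes with neither kind of upstream neighbour these shares were 4.5% (3.51 to 5.67) and 2.20% (1.89 to 2.55). By chromosome the shares ran from 4.67% on V to 6.89% on IV, and by place they were 5.69% in the middle 50% of the chromosomes and 4.94% in the outer parts.

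**Figure D2:**
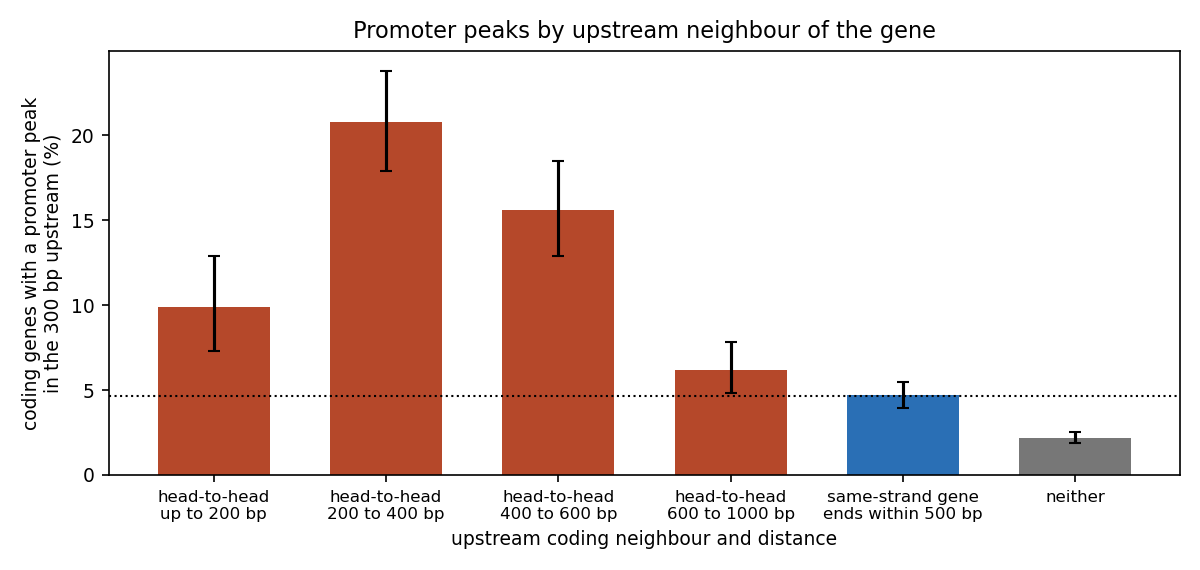
Share of coding genes with a promoter peak in the 300 bp upstream (y axis, %) by the upstream coding neighbour and its distance (x axis), with exact 95% binomial intervals. The dotted line is the 4.67% of all 15557 genes. Genes with a head-to-head neighbour at 200 to 400 bp stand highest at 20.8%, and genes with neither kind of neighbour lowest at 2.19%.

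Passing the IDR threshold already requires reproducible signal, so the presence of these peaks in both replicates is a description. A region of replicate 1 covered the summit for 704 of the 706, a region of replicate 2 for 699, and 697 (98.7%) had both, against 70.2% of the sub-threshold candidates. Among the 4675 strongest regions of each replicate, 516 peaks (73.1%, 69.7 to 76.3) were present in both lists, 167 in 1 and 23 in neither. Of the sub-threshold candidates 3.76% (3.08 to 4.55) were present in both. The share of these peaks was 72.2% at divergent and 73.3% at single promoters. Spearman's rho between the replicates' signals was 0.777 over the 697 peaks, 0.831 at divergent and 0.764 at single promoters, and 0.507 over the sub-threshold candidates. It is given as a description, since the regions share libraries and were chosen on their pooled signal.

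**Figure D3:**
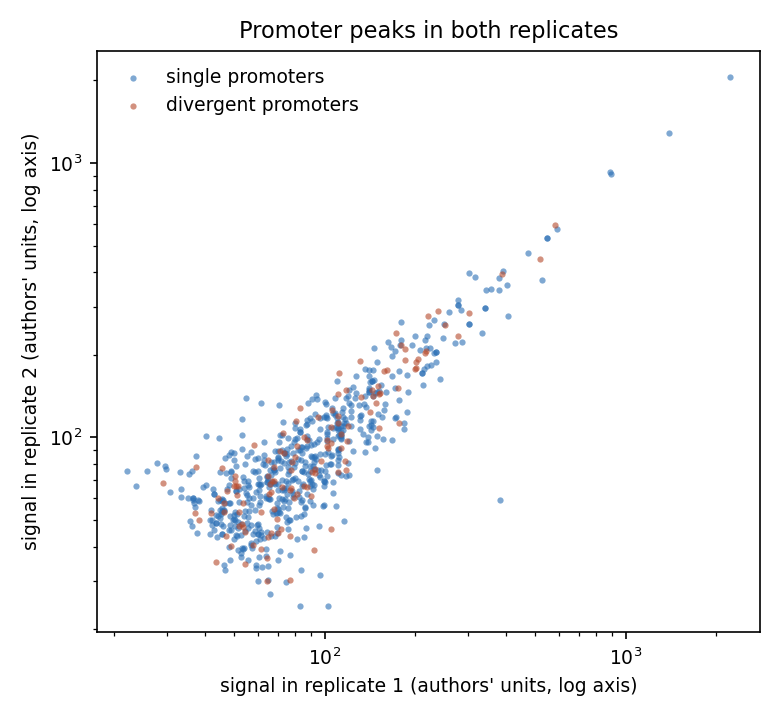
Signal of each promoter peak in replicate 1 (x axis) and replicate 2 (y axis), both in the authors' units on log axes, coloured by promoter type. Each point is 1 of the 697 peaks found in both lists. The points follow the diagonal, and the scatter widens towards low signals.

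The 9 peaks that lacked a region in 1 replicate had pooled signals from 115 to 1422. In replicate 2 the summits at tmem-258, ZK39.10, mdt-22, tag-281, acin-1, chaf-2 and cyp-33C4 had none. In replicate 1 those at ruvb-1 and between mig-5 and cct-1 had none. The strongest of them was tmem-258 (pooled rank 248), whose summit had a signal of 748 in replicate 1.

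The strongest divergent peak lay between spd-2, which encodes a centrosome assembly protein, and F32H2.10 (chromosome I, signal 1156, rank 305). Its signal was 581 in replicate 1 and 593 in replicate 2, with starts 210 bp apart. The next, between T26A8.4 and pdtf-1 (IV, signal 993), had 519 and 447, and its starts were 145 bp apart. The peak between nlp-4, a neuropeptide-like protein gene, and exos-3, a subunit gene of the RNA exosome, had a pooled signal of 798, and 388 and 393 in the replicates. It lay within 1 kb of a stronger peak at a non-coding gene, and a small nucleolar RNA gene began 978 bp from its summit. Both replicates kept these 3 in the same order.

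The other 7 of the 10 strongest divergent peaks had signals from 414 to 592. drr-2, a translation initiation factor gene, faced set-16, a histone methyltransferase gene (III, signal 592, replicates 301 and 284). lin-53, which encodes a histone chaperone of the RBBP4 family, faced nra-2 (I, signal 505, replicates 251 and 257). npp-3, a nuclear pore gene, faced top-2, a DNA topoisomerase II gene (II, signal 424, replicates 218 and 206). malt-1, a paracaspase gene, faced the homeobox gene ceh-38 (II, signal 516, replicates 278 and 235), and there the summit lay 47 bp inside the 5' UTR of ceh-38. The remaining 3 were haf-3, a gene for an ABC transporter, with F57A10.2 (V, signal 526, replicates 239 and 290), R12E2.13 with suco-1 (I, signal 485, replicates 221 and 278) and W04D2.4 with rbm-25 (V, signal 414, replicates 173 and 241). In each of these 3 the value was higher in replicate 2, but a common scale of the replicate lists is not known.

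At single promoters the strongest peak was at syp-3, which encodes a protein of the synaptonemal complex (chromosome I, 106 bp upstream, signal 4214, rank 78). It had 2215 in replicate 1 and 2056 in replicate 2. The second was at eelo-2 (IV, 224 bp upstream, signal 2673, replicates 1393 and 1292), where a piRNA gene began 665 bp away. Y71G12B.23 (I, signal 1809, replicates 886 and 924) had its summit in an intron 264 bp downstream of the start. Y39G10AR.32 (I, 215 bp upstream, signal 1784, replicates 897 and 916) and tmem-258 (V, 207 bp upstream, signal 1422) followed. These 5, and efl-1 after them, stood above every divergent peak in the pooled list.

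The other 5 of the 10 strongest single peaks had signals from 792 to 1175. efl-1, an E2F transcription factor gene, had a peak 184 bp upstream (V, signal 1175, replicates 592 and 576). tasp-1, a homologue of the protease taspase 1, had one 57 bp upstream (III, signal 1078, replicates 547 and 532). cdc-48.1, which encodes a p97 segregase, had one 161 bp upstream (II, signal 948, replicates 475 and 470), and a small nucleolar RNA gene began 504 bp away, just past the 500 bp limit. npr-23, a neuropeptide receptor gene, had one 131 bp upstream, inside an annotated intron (I, signal 902, replicates 526 and 376). cox-5A, a subunit gene of cytochrome c oxidase, had one 291 bp upstream (III, signal 792, replicates 390 and 403). Of these 5, npr-23 had the widest gap between the values in the replicate lists, whose common scale is not known.

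Genes for SNAPc and for the RNA polymerases were looked up after some of their values had been seen. Of 6 SNAPc subunit genes that could hold a peak 2 had one (33.3%, 4.33 to 77.7), snpc-4 and snpc-3.4 (signal 164), and of 21 RNA polymerase subunit genes 7 had one (33.3%, 14.6 to 57.0). Over all 15557 coding genes that could hold one the share was 5.35%. The SNAPc interval includes that share, and the RNA polymerase interval lies above it. snpc-4 itself had a peak 231 bp upstream of its 5' end (I, signal 694, rank 491, replicates 408 and 277), and a weaker entry of the same region 32 bp upstream (signal 150, rank 2592). rpb-11, a subunit gene of RNA polymerase II, had a peak 124 bp upstream (II, signal 595, replicates 278 and 318). The other RNA polymerase genes with a peak were rpb-12 (signal 398), rpac-19 (198), rpoa-12 (145), rpb-9 (130), rpb-4 (128) and rpb-10 (125), and 14 had none, among them ama-1, which encodes the largest subunit of RNA polymerase II. The transgene carries snpc-4 sequence, and whether it adds to the signal at snpc-4 was not tested.

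Part of the strongest single peaks lay in sequence that occurs elsewhere in the genome. A copy, meaning another match of at least 100 bp at 80% identity, was found for the summit windows of 4 of the 10 strongest single peaks: 132 copies at syp-3, 26 at Y71G12B.23, 133 at Y39G10AR.32 and 136 at tmem-258. Exact inverted-repeat arms of 34, 17 and 85 bp were present at syp-3, Y39G10AR.32 and tmem-258. None of the 10 strongest divergent peaks had a copy (0 to 30.8%). Over all peaks 50 of 706 had one (7.08%, 5.30 to 9.23), close to the 6.93% of sub-threshold candidates and below the 27.7% of peaks with no annotated 5' end. How repeated sequence enters the signal was not tested. Without these 50 peaks the ratio of divergent to single medians was still 1.05. With all candidates that have copies left out, sub-threshold ones included, 46% of 261 divergent and 18.5% of 2893 single candidates were IDR peaks.

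Searched on both strands up to 100 bp from the summit, TGTCGG was present in 75 of the 706 peaks (10.6%, 8.45 to 13.1). It was present in 6.48% of sub-threshold candidates (5.58 to 7.48) and in 4.02% of promoter windows of the same length at all 15557 genes. At divergent promoters the share was 5.56% (2.26 to 11.1), against 2.67% (0.731 to 6.69) of the sub-threshold candidates there, with overlapping intervals. At single promoters it was 11.7% (9.22 to 14.6), against 6.71% (5.77 to 7.75). Over all 706 peaks TGTCGG was less frequent than at peaks of non-coding RNA genes, with 19.6%, and at peaks with no annotated 5' end, with 38.1%. Because TGTCGG was first found in these data upstream of non-coding RNA genes, the 19.6% is no independent comparison. The reversed sequence GGCTGT was present in 3.26% of the peaks and 3.50% of sub-threshold candidates. It has the same base composition as TGTCGG but lacks its CG dinucleotide, so it is no control for the CG content described further on. Without the windows that have genomic copies TGTCGG stood at 9.60% (7.46 to 12.1) against 6.53% (5.59 to 7.57). Among summits upstream of the start it stood at 8.95% (6.78 to 11.5) against 5.28% (4.19 to 6.54). Where present, it lay at a median of 26 bp from the summit, and in 49.3% of cases within 25 bp, against 35.1% at sub-threshold candidates. This was not particular to TGTCGG. The shares within 25 bp were 46.3% against 31.1% for ACGCGC and 47.8% against 35.5% for CTGCGTC.

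By strength TGTCGG was unevenly spread. With the peaks in 4 groups of falling signal the shares were 18.1%, 5.65%, 10.2% and 8.52%, with the highest share in the strongest group. In replicate 1 the strongest and weakest groups had 18.2% and 9.09%, and in replicate 2 13.1% and 6.32%. The median signal was 163 with and 155 without it, 103 and 80.7 in replicate 1, and 84.6 and 78.4 in replicate 2. Peaks with TGTCGG had genomic copies in 12 of 75 cases (16.0%, 8.55 to 26.3) and peaks without it in 38 of 631 (6.02%, 4.30 to 8.17).

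Sequences with CG dinucleotides were the more frequent feature of these promoters. Of 2080 6-base sequences, each counted with its reverse complement, 19 of the 20 with the greatest excess over sub-threshold candidates contained CG and none of the 20 with the greatest deficit did. The first was ACGCGC, present in 162 peaks (22.9%, 19.9 to 26.2), in 5.03% of sub-threshold candidates (4.23 to 5.93) and in 4.60% of all promoters. The second was GAGCGC, with 20.7% (17.7 to 23.9), 4.96% and 3.85%. Among summits upstream of the start, ACGCGC was at 24.8% of peaks and 7.24% of sub-threshold candidates, and GAGCGC at 21.6% and 5.82%. The greatest deficit was at CTGAAA, with 24.5% against 39.1%. All of these were picked after their values were seen, and they overlap each other.

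ACGCGC and GAGCGC went with stronger signal in both replicates, but this was not particular to them. They were picked for their excess at regions above a limit on the pooled signal, which both replicates enter. Their relation to signal is therefore a description and no independent support. The median signal was 181 with ACGCGC and 149 without it, 91.2 and 77.7 in replicate 1, and 87.4 and 76.3 in replicate 2. With GAGCGC it was 189 against 149, 101 against 77.9 and 94.8 against 75.7. They were found at 29.4% (21.6 to 38.1) and 25.4% (18.1 to 33.9) of divergent peaks, and at 21.6% (18.3 to 25.1) and 19.7% (16.5 to 23.1) of single ones. These intervals overlap, so no difference between the promoter types is read from them. For signal, the reversed sequence GGCTGT, present in 23 peaks, went the same way. Its medians were 98.5 with and 81.7 without it in replicate 1, and 90.6 and 78.1 in replicate 2. TGTCGG did too, with the medians given above. The TATA box core TATAAA was lower in replicate 1 (75.9 against 82.6) and higher in replicate 2 (80.5 against 78.1). Whether stronger signal is specific to any of these sequences was not tested.

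Other short sequences, chosen with earlier results of these data known, differed in direction. CTGCGTC was present in 12.7% of the peaks (10.4 to 15.4), 4.10% of sub-threshold candidates and 3.50% of all promoters. GGGCGG, the GC box, had 10.8%, 4.06% and 5.72%, and the GA repeat GAGAGA had 24.6%, 15.8% and 15.6%. The TATA box core TATAAA was less frequent, with 16.9% (14.2 to 19.8) against 25.5% and 28.3%. CACGTG, the E box, had 4.67%, 4.47% and 4.25%, with overlapping intervals. CTGTTTCA, the core upstream of piRNA genes, was in 3 peaks (0.425%, against 1.27% and 1.00%), and the tRNA gene element GTTCGANNC was in 7 (0.992%, against 1.53% and 0.900%, and 20.4% at peaks of non-coding RNA genes). A match is a description of the letters in the window and not of a bound site.

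Base composition differed between the same sets of windows. The summit windows of the 706 peaks had a mean G + C content of 40.3% (SD 6.87 over windows) and 11.3 CG dinucleotides (SD 4.25). The sub-threshold candidates had 36% and 7.66 (SD 3.85), and the windows at all promoters 33.7% and 6.12 (SD 3.32). From the strongest to the weakest of the 4 signal groups the mean number of CG dinucleotides was 13.1, 11.8, 10.4 and 9.76, and the G + C content was 42.8%, 41.4%, 39.1% and 38.0%. Divergent and single promoters both had 11.3 CG dinucleotides, at 38.5% and 40.7% G + C. The part of base composition in the motif shares, and in the signal itself, was not tested.

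**Figure D4:**
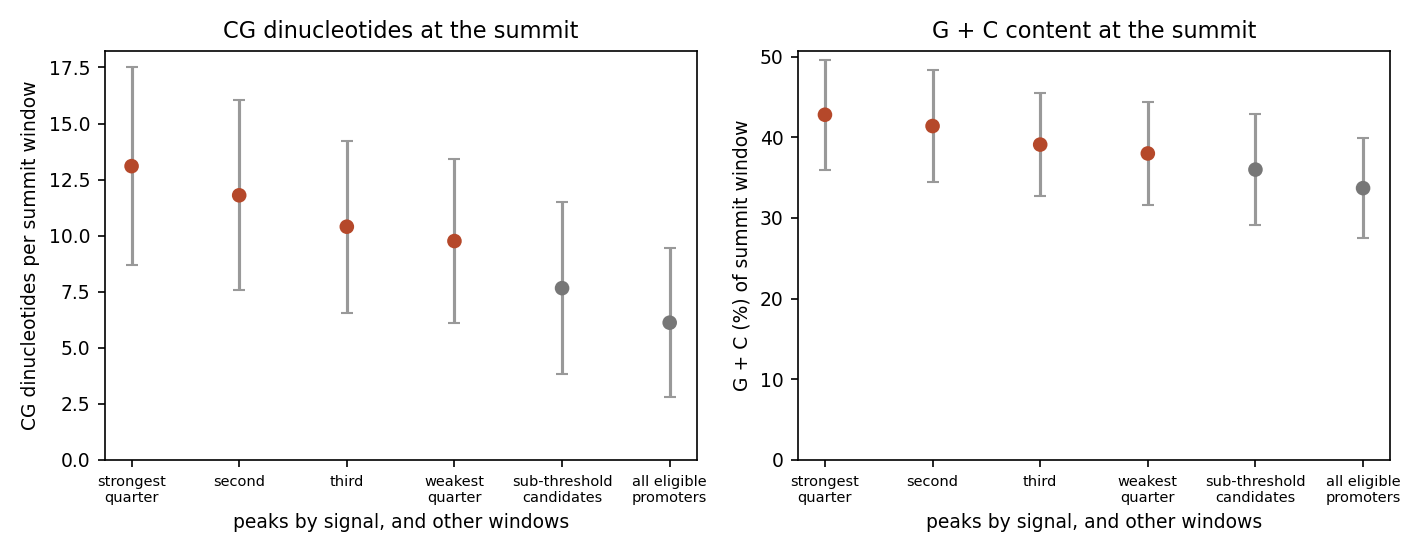
CG dinucleotides per summit window (left, 100 bp to each side of the summit) and G + C content in % (right) for promoter peaks in 4 equal groups of falling signal (red), sub-threshold candidates and all promoters that could hold a peak (grey). Points are means over windows and bars are SD over windows. The means fall in order from 13.1 to 6.12 CG dinucleotides and from 42.8% to 33.7% G + C, with wide overlap of the windows.

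Among 23 gene lists by function, promoter peaks were most frequent at proteasome, DNA replication and nuclear pore genes. They were rarest at chemoreceptor, collagen and nuclear hormone receptor genes. RNA polymerase subunit genes, described above apart from these lists, had 33.3%. The background is the 5.35% of all 15557 genes. Of 31 proteasome genes that could hold a peak 9 had one (29.0%, 14.2 to 48.0), led by rpt-1, an ATPase of the regulatory particle (signal 413, replicates 195 and 218), and rpn-9, a lid subunit (signal 400, replicates 225 and 183). DNA replication and repair had 11 of 38 (28.9%, 15.4 to 45.9), led by pcn-1, the PCNA sliding clamp (signal 548, replicates 260 and 287), and mcm-4, a replicative helicase subunit (signal 299, replicates 172 and 118). The nuclear pore list had 7 of 25 (28.0%, 12.1 to 49.4), with npp-3 and npp-8 (signal 239) on top. For these lists the whole interval lay above the background.

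The next 6 lists also stood above the background. Translation initiation and elongation factors had 7 of 34 (20.6%, 8.70 to 37.9), with iff-2, an eIF5A gene (signal 456, replicates 219 and 234), and eif-3.B, an eIF3 subunit gene (signal 430, replicates 217 and 211). Splicing and Sm proteins had 9 of 47 (19.1%, 9.15 to 33.3), and the highest of their peaks was shared by rsp-2 and rsp-1, SR splicing factor genes that start 407 bp apart (signal 376, replicates 185 and 191). The list of cyclins, cell cycle kinases and cdc genes had 7 of 37 (18.9%, 7.96 to 35.2), with cdc-48.1 and cdk-7 (signal 215). Kinesins, tubulins and dynein had 5 of 29 (17.2%, 5.85 to 35.8), with tbb-1, a beta-tubulin gene (signal 395), and bmk-1, a mitotic kinesin gene (signal 281). Chromatin regulators had 11 of 68 (16.2%, 8.36 to 27.1), with efl-1 and set-16, and the ubiquitin pathway 8 of 52 (15.4%, 6.88 to 28.1), with ubc-6 (signal 399) and ubc-25 (signal 388). Their whole intervals lay above it too.

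For the next 6 lists the share was above the background but the interval reached it. Aminoacyl-tRNA synthetases had 4 of 30 (13.3%), with ears-2 (signal 286) and vars-1 (signal 163). Germ granule and germline genes had 4 of 30, with mex-5 (signal 375) and pos-1 (signal 286), which encode RNA-binding proteins of the early embryo. Oxidative phosphorylation had 4 of 31 (12.9%), with cox-5A and cyc-1 (signal 228). Mitochondrial ribosomal proteins had 8 of 68 (11.8%, 5.22 to 21.9), with mrpl-55 (signal 233) and mrpl-28 (rank 1918). Argonautes and small RNA pathway genes had 6 of 56 (10.7%), with mut-15 (signal 388) and rde-8 (signal 275), which act in small interfering RNA silencing. Chaperones had 4 of 47 (8.51%), with dnj-9 (signal 427) and cct-1 (signal 334).

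In the remaining lists peaks were few. The synapse and neuron list had 2 of 29 (6.90%), unc-40 (signal 166) and unc-14 (signal 87.6), the vacuolar ATPase 1 of 16, vha-2 (rank 3357), muscle genes 1 of 25, tni-3 (signal 98.5), and homeobox genes 1 of 50, ceh-38. The 3 lists with the whole interval below the background were nuclear hormone receptors with 4 of 234 (1.71%, 0.468 to 4.32), collagens with 1 peak (0.840%, 0.0213 to 4.59) and chemoreceptors with 5 of 1175 (0.426%, 0.138 to 0.990). Named peaks in them were nhr-114 (signal 375), nhr-212 (signal 354), col-94 (signal 96.2), srt-28 (signal 313) and srh-16 (signal 292). None of the 6 vitellogenin genes could hold a peak under the positional rule. Of 17 defining genes of intestine, muscle, neurons, hypodermis and germline 10 could hold one and 0 did, although glh-1 had a candidate region. Binding near a gene is no measure of its expression, and the labelled whole-animal material cannot be checked this way. Of the 23 lists, vitellogenins included, 17 were above the background, and genes of a list can share a peak. A divergent peak counted for a named gene can also lie nearer to its neighbour, as at mex-5 with rec-8 and bmk-1 with coh-3.

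**Figure D5:**
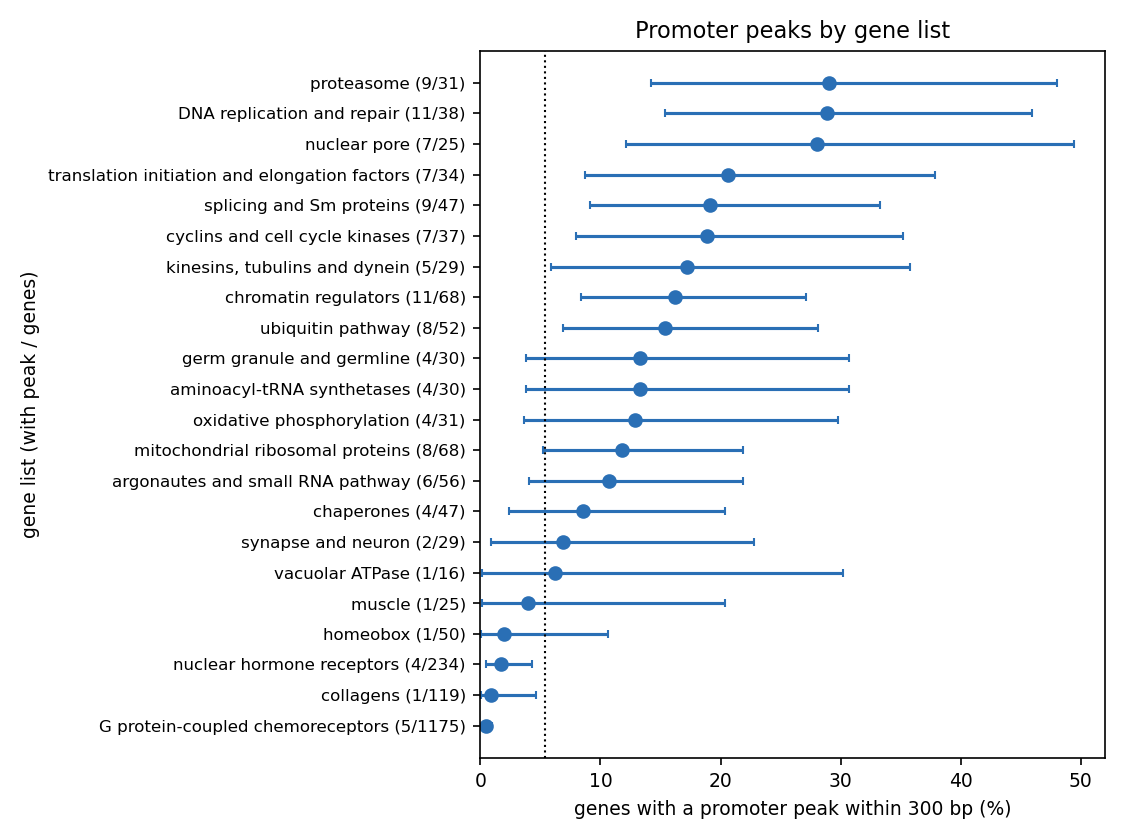
Share of the genes of each list with a promoter peak within 300 bp (x axis, %), with the number with a peak and the number that could hold one in the label, and exact 95% binomial intervals. The dotted line is the background of 5.35% over 15557 genes. Proteasome, replication and nuclear pore genes stand at 28.0 to 29.0%, and chemoreceptors at 0.426%.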

How the data were processed

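ChIP-seq of SNPC-4 was available for 2 biological replicates of whole worms, the only group. The authors deposited ce11 peak lists with a signal value and a summit per region, per the labels and the text listing: 30000 candidates per replicate, 30000 candidates after pooling, and the 4675 pooled IDR peaks. Peak caller, aligner and signal scale: not given in the sources used here. Depth is unknown. Groups of regions were compared by signal only within 1 list. Values of both replicates at the same peak are given side by side, without a known common scale.

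Gene 5' ends and names came from Ensembl release 115 gene records of WBcel235 (19832 coding genes under the name rule, 24813 non-coding genes), and sequence from RefSeq. Motifs were searched on both strands within 100 bp of the summit. At promoters without a peak the window was centred 128 bp upstream. Overlapping motifs were counted separately. Copies were found with blastn 2.17.0 (e-value 1e-05, at least 100 bp at 80% identity). Python 3.11.15, numpy 2.4.6, pandas 2.3.3, scipy 1.17.1 and matplotlib 3.10.9 were used, and the positional rule and motif search were tested on simulated data.

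There is 1 group, and regions are not replicates, so no test was run: shares have exact 95% binomial intervals, and the replicate lists serve as a check. Members, motifs, lists and alternatives were chosen with earlier results of these data known. Gene lists were set by symbol, and 5 were narrowed to drop unrelated symbols after values were seen. Genes named were the 10 strongest divergent and single peaks, the 2 strongest per list, the extremes of gap, signal and distance, and the sequences of the 3 strongest of each kind outside chromosome I, with and without TGTCGG. Alternatives were other distances, transcript 5' ends, a stricter threshold, each replicate alone, merging, other definitions of divergent promoters and other overlaps.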

Additional observations from a re-analysis of the deposited data

How the results depend on the processing

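Over 16 settings, 41 of 59 values stayed within 1.5 times for the count of peaks, within the main interval for shares, and within 1 SD between the replicate lists for the ratio (0.0939) and the offset (5.66 bp). A limit of 150 bp gave 375 peaks, 7.47% divergent, a ratio of medians of 0.858, a median offset at single promoters of -63 bp and 8% with TGTCGG, and 500 bp gave 24.0% and -169 bp. The stronger 50% of the IDR list gave 320 peaks, a ratio of 1.18, -163 bp and 97.8% strong in both replicates. With 1 replicate left out, the count ranged from 671 to 680, the divergent share from 17.3 to 18.7%, the ratio from 1.03 to 1.16, the offset from -148 to -140 bp and the TGTCGG share from 9.99 to 11.8%. Calling a promoter divergent from a head-to-head start within 1000 bp gave 37.1%. TGTCGG was at 6.94% within 50 bp and 14.3% within 200 bp. The share strong in both replicates was 51.1% at 50% reciprocal overlap and 98.7% with all candidate regions. These values follow from the wider or narrower limits, and where they do not, the cause was not tested. Chosen after seeing the data, leaving out windows with copies (656 peaks) or beside a stronger non-coding peak (704) gave ratios of 1.05 and 1.02. No paired analysis was possible because there is only 1 group.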
